A study of Mus musculus with 13 samples.

Results

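The 10 genes described here encode components of necroptosis and of the death receptor pathway that feeds it: Tnfrsf1a, Tradd, Fadd, Ripk1, Ripk3, Mlkl, Zbp1, Casp8, Cflar and Birc3. They were chosen by name from the 49315 genes counted in each library, with earlier results of these data known. All 10 were among the 19360 genes with enough counts to be tested. RNA-Seq was performed on PBS-perfused whole midbrain of 13 male mice, each a separate animal of 8 to 12 weeks. All of the mice carried floxed alleles of the kinase gene Ripk3 and, by the labels of all 13 samples, were given tamoxifen (60 mg/kg for 5 days) at least a week before treatment. Ripk3fl/fl Aldh1l1Cre+ mice (Cre+) also carried a tamoxifen-inducible Cre driven by the astrocyte gene Aldh1l1, and their Ripk3fl/fl Aldh1l1Cre- littermates (Cre-) did not. Mice received saline or the dopaminergic neurotoxin MPTP (20 mg/kg, once a day for 5 days), and tissue was taken 3 days later. There were 3 mice in each of Cre- Saline, Cre+ Saline and Cre- MPTP, and 4 in Cre+ MPTP. MPTP is converted in the brain to MPP+, which enters dopaminergic neurons and damages their mitochondria.

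TNF receptor 1, encoded by Tnfrsf1a, recruits TRADD and the kinase RIPK1 when it binds its ligand, and the ubiquitin ligases cIAP1 and cIAP2 (Birc3) then hold RIPK1 in a complex that signals to NF-kappaB. When that checkpoint fails, RIPK1 joins FADD and caspase-8, and the cell can die by apoptosis, unless cFLIP (Cflar) restrains the caspase. Where caspase-8 is not active, RIPK1 or the nucleic acid sensor ZBP1 can engage RIPK3, which phosphorylates the pseudokinase MLKL, and MLKL then permeabilizes the plasma membrane. RIPK3 can also drive inflammatory transcription without cell death, and whether it did so in astrocytes was the question of the study.

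The libraries held between 11489150 and 29397278 counts assigned to genes. The smallest library, Cre- MPTP replicate 1, stood apart, with counts for 21101 genes against 25432 to 27186 in the others, so the changes of the 10 genes that rest on the Cre- MPTP mice are also given without it. Cre+ MPTP replicate 4 stood apart in muscle markers, with a summed CPM of 2743, and alternatives without both libraries were run. Midbrain identity was visible in Th, which encodes the rate-limiting enzyme of dopamine synthesis and had 31.9 to 53.6 CPM (counts scaled to the TMM-adjusted library size) over all libraries. In whole tissue, fewer cells of a type and less RNA per cell cannot be told apart. For the same reason, and because reads were counted over the whole gene, the counts of Ripk3 do not check its deletion in astrocytes.

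On GRCm38, Ripk3 (ENSMUSG00000022221) spans chr14:55784996-55788857 and Mlkl (ENSMUSG00000012519) spans chr8:111311797-111338177, both on the minus strand. Zbp1 (ENSMUSG00000027514) spans chr2:173206612-173218923 and Birc3 (ENSMUSG00000032000) chr9:7848699-7873186, also on the minus strand, and Tnfrsf1a (ENSMUSG00000030341) spans chr6:125349362-125362484 on the plus strand. Casp8 (ENSMUSG00000026029, chr1:58795374-58847503) and Cflar (ENSMUSG00000026031, chr1:58711508-58758884) are neighbors on the plus strand. Tradd (ENSMUSG00000031887) spans chr8:105258286-105264609 on the minus strand. The exons of Ripk1 (ENSMUSG00000021408, chr13:34002363-34035170, plus strand) share 2349 bases with Serpinb6a and Gm17084, and those of Fadd (ENSMUSG00000031077, chr7:144577318-144582463, minus strand) share 239 bases with the antisense gene Faddos. Reads in these shared bases could not be assigned with certainty, and the strand setting of the counting was not given in the sources used here.

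Because 7 of the genes were higher in every Cre- MPTP library than in every Cre- Saline library, the promoters were searched for the letters that interferon and NF-kappaB factors are known to bind. RefSeq windows (GRCm38.p6) of 250 bases before to 50 bases after a transcription start were found for 8 of the 10 genes, in 9 windows because Ripk1 has 2 starts; Zbp1 and Tradd were not matched. Both strands were searched for GAAANNGAA, the core of the interferon-stimulated response element, for TTCNNNGAA, the gamma-activated site, and for the kappaB consensus. The 3 windows shown here each held a match and are written 5′ to 3′ on the gene's strand, with the matching letters in capitals: the targeted gene Ripk3 (chr14:55788808-55789107, minus strand), the second start of its partner Ripk1 (chr13:34002624-34002923, plus strand), and the receptor gene Tnfrsf1a (chr6:125349473-125349772, plus strand), which differed most between genotypes after MPTP.
Ripk3: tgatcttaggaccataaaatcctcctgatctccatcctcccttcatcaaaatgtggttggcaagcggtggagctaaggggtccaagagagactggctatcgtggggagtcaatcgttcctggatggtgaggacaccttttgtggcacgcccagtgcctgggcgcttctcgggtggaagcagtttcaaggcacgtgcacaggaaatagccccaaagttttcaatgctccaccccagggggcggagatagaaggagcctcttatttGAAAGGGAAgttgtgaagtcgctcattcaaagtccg
Ripk1, second start: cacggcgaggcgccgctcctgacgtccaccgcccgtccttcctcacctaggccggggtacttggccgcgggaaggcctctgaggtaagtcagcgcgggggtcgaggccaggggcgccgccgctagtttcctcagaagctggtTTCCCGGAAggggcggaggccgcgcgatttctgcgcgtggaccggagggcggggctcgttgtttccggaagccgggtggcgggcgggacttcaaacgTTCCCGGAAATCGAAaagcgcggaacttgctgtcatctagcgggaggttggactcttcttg
Tnfrsf1a: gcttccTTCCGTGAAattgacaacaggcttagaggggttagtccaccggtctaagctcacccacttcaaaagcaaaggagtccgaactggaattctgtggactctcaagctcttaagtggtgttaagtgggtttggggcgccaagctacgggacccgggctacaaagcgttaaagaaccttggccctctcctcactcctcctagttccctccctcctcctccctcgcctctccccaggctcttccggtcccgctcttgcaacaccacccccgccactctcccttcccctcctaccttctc
With the start counted as base 0, Ripk3 held GAAAGGGAA at base 14, downstream of the start. Ripk1 held TTCCCGGAA at base -108 and again at base -11, where it ran into an overlapping interferon element that began at base -5. Tnfrsf1a held TTCCGTGAA at base -244. In Cflar, the interferon element was found on the opposite strand (TTCGGTTTC, base 7). Over all 32851 RefSeq windows, 8.56% held the interferon element, 8.3% the gamma-activated site and 4.51% the kappaB consensus. The windows of Mlkl, Casp8, Fadd, Birc3 and the first start of Ripk1 held none of the 3, and the kappaB letters were in none of the 9 windows. These matches describe letters in a short window and do not show that a factor binds there.

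Levels were first compared between genes per transcript length, as TPM (the share of length-corrected counts, from the exonic lengths in the files). In the Cre- Saline midbrain, the receptor and its adaptor were the most abundant of the 10, with Tradd at 18.6 ± 0.847 TPM and Tnfrsf1a at 18.4 ± 2.14 TPM (SD, n = 3). Cflar followed at 4.49 ± 0.470 TPM, and from Cflar through Fadd, Casp8 and Ripk1 to Birc3 the range of each gene overlapped with that of the next, whereas those of Birc3 and Mlkl did not overlap. The necroptotic core was the least abundant, with Mlkl at 0.670 ± 0.0190 TPM, Ripk3 at 0.437 ± 0.247 TPM and Zbp1 at 0.317 ± 0.184 TPM (SD, n = 3), and the ranges of these 3 overlapped in the same way. Ripk3 stood below its partner kinase Ripk1, at a ratio of 0.124 to 0.233 over the 6 Saline libraries. In Cre- MPTP midbrain, Tnfrsf1a was the highest of the genes at 67.9 ± 16.8 TPM, Birc3 moved from rank 7 to rank 3 at 8.14 ± 4.27 TPM, and Zbp1 from rank 10 to rank 7 at 4.79 ± 1.80 TPM (SD, n = 3). Ripk3 had the lowest mean there, at 1.46 ± 0.83 TPM (SD, n = 3). From Birc3 at rank 3 to Ripk3 at rank 10, the range of each gene overlapped with that of the next. These ranks order the means only and were not resolved.

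**Figure D1:**
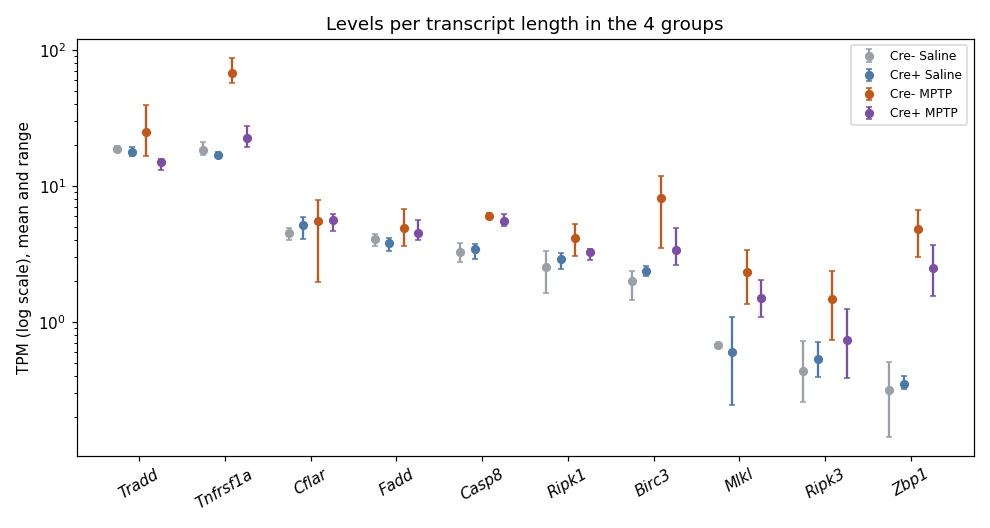
Mean TPM (log axis) of each gene in the 4 groups, with bars from the lowest to the highest library (n = 3, 3, 3 and 4), ordered by the Cre- Saline mean. Tradd and Tnfrsf1a lay highest in Cre- Saline midbrain and Mlkl, Ripk3 and Zbp1 lowest.

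The first comparison asked how these genes responded to MPTP when astrocytes kept Ripk3. In Cre- mice, 5 of the 10 genes were called higher after MPTP: Zbp1, Tnfrsf1a, Birc3, Mlkl and Casp8 (adjusted p under 0.05, quasi-likelihood F-test of edgeR, with p-values adjusted by Benjamini-Hochberg). None was called lower. Over all 19360 genes tested, 3.18% were called, 2.23% higher and 0.956% lower. All 10 genes had a positive log2 fold change (log2FC), as did 10153 of all genes tested, and the median was 1.45 against 0.03 over all genes. The CPM of 7 of the 10 were higher in every Cre- MPTP library than in every Cre- Saline library, against 7.11% of all genes, and 0 were lower in every library (8.02% of all genes). Without Cre- MPTP replicate 1, 8 of the 10 genes were called higher. Calls rose over all genes too in that fit, with 992 of 19311 called higher and 820 lower.

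**Figure D2:**
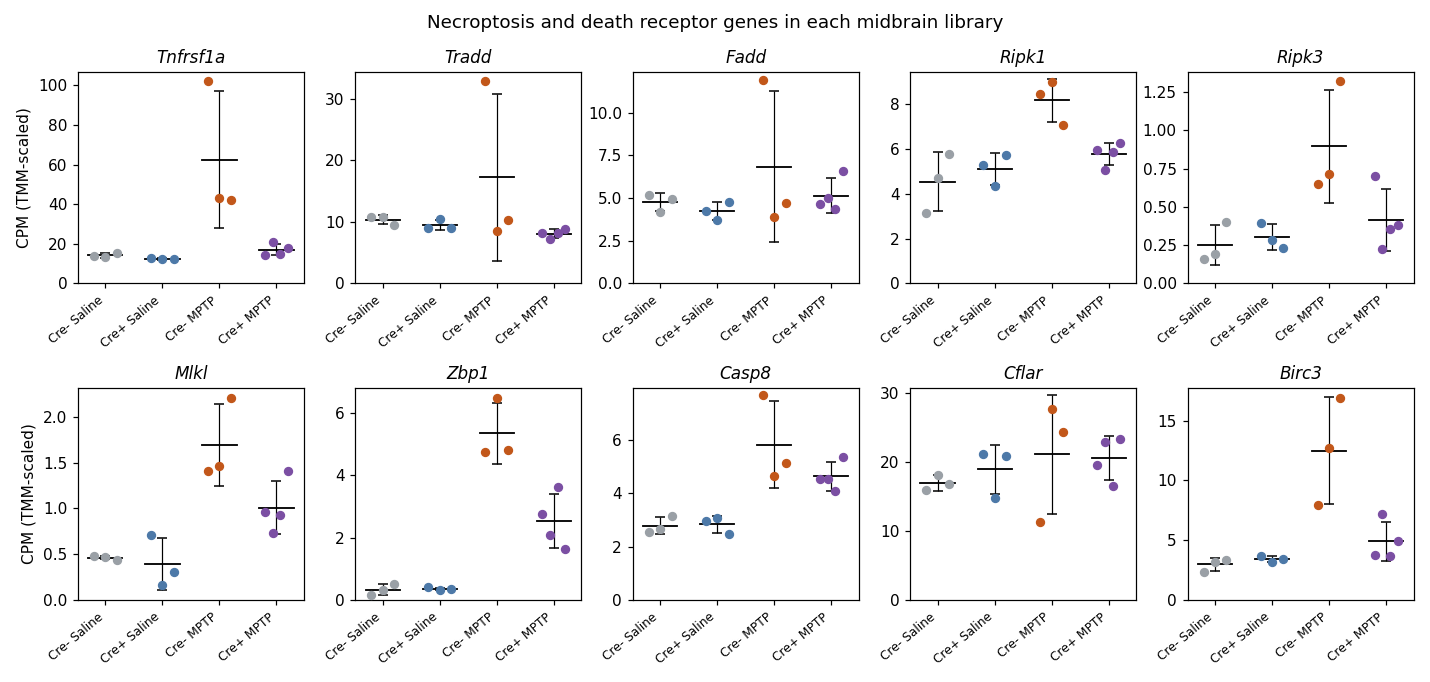
CPM of each gene in each of the 13 libraries (points), with the group mean (bar) and SD (n = 3, 3, 3 and 4); each panel has its own axis from 0. Zbp1, Tnfrsf1a, Birc3, Mlkl, Casp8, Ripk1 and Ripk3 show every Cre- MPTP point above every Cre- Saline point.

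Tnfrsf1a, the receptor for TNF, had 13.9, 13.2 and 15.4 CPM in the Cre- Saline libraries and 102, 43.1 and 42.0 CPM in the Cre- MPTP libraries. The groups were far apart, and replicate 1 was the highest of the MPTP libraries by a wide margin. This was a log2FC of 2.13 (SE 0.303, edgeR adjusted p = 0.00245), a 4.39-fold rise. Without Cre- MPTP replicate 1 it was 1.59 (SE 0.139, edgeR adjusted p = 3.5e-05), and it stayed called whichever of the 13 libraries was omitted. Its adaptors did not pass the test. Tradd, which bridges the receptor to RIPK1, had 32.9 CPM in Cre- MPTP replicate 1 but 8.59 and 10.3 CPM in the other 2 libraries, next to 9.57 to 10.8 CPM in Cre- Saline. Fadd, which recruits caspase-8, had 11.9 CPM in the same library and 3.92 and 4.69 CPM in the others, against 4.18 to 5.20 CPM in Cre- Saline. The log2FC values of Tradd (0.71, SE 0.389, edgeR adjusted p = 0.395) and Fadd (0.49, SE 0.354, edgeR adjusted p = 0.508) thus rested on 1 library and turned to -0.14 (Tradd) and -0.14 (Fadd) without it.

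Birc3, the ubiquitin ligase cIAP2 and an NF-kappaB target, had 2.30, 3.20 and 3.36 CPM in Cre- Saline and 7.91, 12.7 and 16.9 CPM in Cre- MPTP libraries. Every MPTP library lay above every Saline library. Its log2FC was 2.09 (SE 0.321, edgeR adjusted p = 0.00330), or 4.25-fold. It was 2.33 without Cre- MPTP replicate 1 (edgeR adjusted p = 0.000158), and the call held with each library left out. The calls of Tnfrsf1a and Birc3 were lost when edgeR was fitted to the Cre- groups alone (adjusted p = 0.0782 and 0.0691). In that fit 1 of the 10 genes was called. Tnfrsf1a and Birc3 were each called under 6 of the 7 other settings of the test.

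Zbp1, the sensor of Z-form nucleic acids, changed most of the 10. Its counts were 4, 8 and 14 in Cre- Saline libraries (0.159, 0.312 and 0.511 CPM) and 44, 164 and 146 in Cre- MPTP libraries (4.77, 6.50 and 4.82 CPM). The MPTP libraries were close to each other and far above Saline. The log2FC was 4.01 (SE 0.414, edgeR adjusted p = 0.000628), a 16.1-fold rise, and it was 4.08 without Cre- MPTP replicate 1 (edgeR adjusted p = 6.08e-05). It was called whichever of the 13 libraries was omitted and under all 7 of the other settings of the test, with the highest adjusted p among those settings 0.0217 (edgeR on the Cre- groups alone).

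Mlkl, the executioner of necroptosis, had 0.476, 0.469 and 0.438 CPM in Cre- Saline and 1.41, 1.47 and 2.21 CPM in Cre- MPTP libraries. The 3 Saline values lay close together and below all MPTP values. Its log2FC was 1.89 (SE 0.451, edgeR adjusted p = 0.0410). This call was near the threshold and did not survive omission of any of the 3 Cre- Saline libraries, Cre+ Saline replicate 3, Cre- MPTP replicate 3, or Cre+ MPTP replicate 1 or 3, where the adjusted p by edgeR reached 0.165. The log2FC itself stayed between 1.63 and 2.00 over the 13 fits, and the call held without Cre- MPTP replicate 1 (1.99, edgeR adjusted p = 0.0153). Mlkl was called under 4 of the 7 other settings of the test, and not with edgeR on the Cre- groups alone.

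Ripk3, which phosphorylates MLKL, had 4, 5 and 11 counts in Cre- Saline and 6, 18 and 40 counts in Cre- MPTP libraries, or 0.159, 0.195 and 0.402 against 0.650, 0.713 and 1.32 CPM. The groups did not overlap in CPM, although the lowest MPTP value stood on 6 counts. This was a log2FC of 1.84 (SE 0.509, edgeR adjusted p = 0.0856). Omitting Cre- MPTP replicate 1 gave 1.99, past the threshold (edgeR adjusted p = 0.0318). Ripk1, the kinase upstream of RIPK3, had 3.14, 4.72 and 5.77 CPM in Cre- Saline and 8.45, 8.99 and 7.10 CPM in Cre- MPTP libraries. Its groups did not overlap either. Its log2FC of 0.85 (SE 0.229, edgeR adjusted p = 0.0764) was 0.83 without Cre- MPTP replicate 1 and then passed (edgeR adjusted p = 0.0364). Ripk3 and Ripk1 were each called under 3 of the 7 other settings of the test.

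Casp8, the protease that keeps RIPK1 and RIPK3 in check by cleaving them, had 2.54, 2.66 and 3.14 CPM in Cre- Saline and 7.69, 4.63 and 5.15 CPM in Cre- MPTP libraries. All MPTP values were higher. Its log2FC was 1.05 (SE 0.230, edgeR adjusted p = 0.0254), or 2.07-fold, and was 0.82 without Cre- MPTP replicate 1 (edgeR adjusted p = 0.0157). The call did not survive omission of any Cre- Saline library, where the adjusted p by edgeR reached 0.119. Casp8 was called under 4 of the 7 other settings of the test, and not with edgeR on the Cre- groups alone. Cflar, whose product cFLIP pairs with caspase-8 and limits its activity, had 11.3, 27.7 and 24.4 CPM in Cre- MPTP and 15.9 to 18.2 CPM in Cre- Saline libraries. Here replicate 1 was the lowest of all 13 libraries rather than the highest. The log2FC of Cflar was 0.33 (SE 0.277, edgeR adjusted p = 0.576), and omitting replicate 1 gave 0.62, past the threshold (edgeR adjusted p = 0.0340). The TPM ratio of Cflar to Casp8 was 1.22 to 1.56 in Cre- Saline and 0.335, 1.37 and 1.08 in Cre- MPTP libraries.

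**Figure D3:**
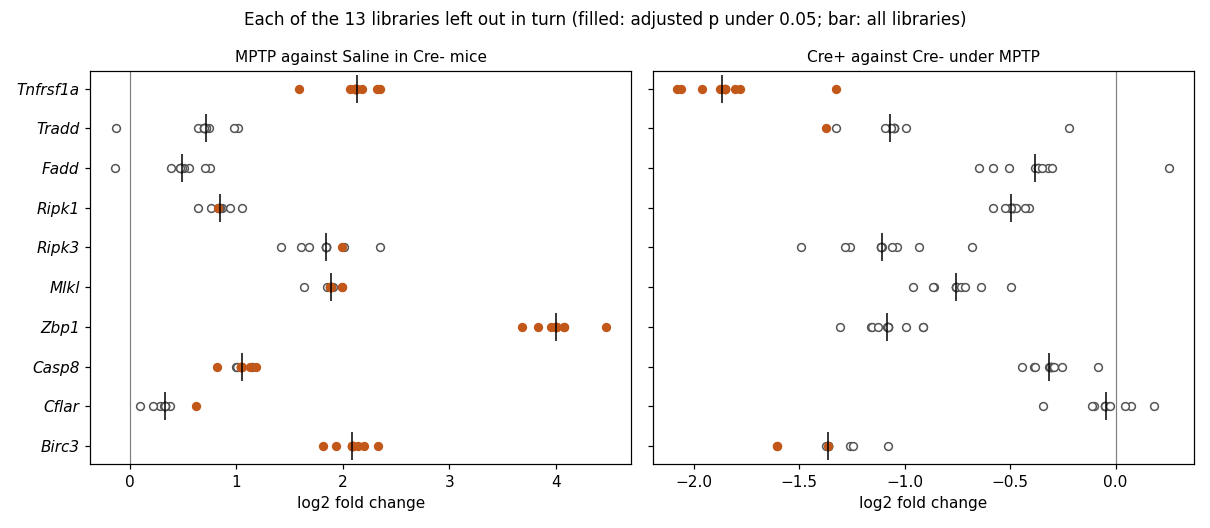
Log2FC of each gene as each of the 13 libraries was omitted, for MPTP against Saline in Cre- mice and for Cre+ against Cre- under MPTP; filled points had an edgeR adjusted p under 0.05, open points did not, and the vertical bar is the value with all libraries. Zbp1, Tnfrsf1a and Birc3 kept their call in every fit of the first comparison, and Tnfrsf1a did so in the second.

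Markers of some other cells also differed between the groups. In Cre- mice, 0 of 8 endothelial and 0 of 7 dopaminergic neuron markers were called with MPTP. The summed CPM of 8 neutrophil markers was 0.119 to 1.28 in Cre- Saline, 0.325 to 3.43 in Cre+ Saline, 10.5 to 67.1 in Cre- MPTP and 0.649 to 4.14 in Cre+ MPTP libraries. Of the 5 markers that could be tested, 4 were called higher after MPTP in Cre- mice, and the defining surface marker Ly6g had 0 to 3 counts in any library. Cre- MPTP replicate 3 had the highest sum (67.1 CPM) and also the highest Birc3, Ripk3 and Mlkl, whereas Tnfrsf1a, Tradd, Fadd and Casp8 were highest in replicate 1, where the sum was 16.2 CPM. The summed CPM of 8 astrocyte markers was 2899 to 3545 in Cre- Saline and 4799 to 5292 in Cre- MPTP libraries, and that of 9 microglia markers was 279 to 324 and 229 to 387. The astrocyte sum was 3357 to 3932 CPM in Cre+ MPTP libraries. Only Gfap and Aldh1l1 of the 8 astrocyte markers were called higher after MPTP in Cre- mice, and of the microglia markers Itgam was called higher (log2FC 1.36) and P2ry12 lower (-2.79). The summed CPM of 6 oligodendrocyte markers was 12490 to 17150 in Cre- Saline and 9167 to 11780 in Cre- MPTP libraries, with 2 called lower (Mog and Cnp) and a median log2FC of -0.73. Of 7 monocyte and border macrophage markers tested, Ly6c2 was called higher (2.66) and Mrc1 lower (-1.34). The part of these cells in the values above was not tested.

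The second comparison asked for the response to MPTP in mice whose astrocytes were targeted for deletion of Ripk3. In Cre+ mice, 0 of the 10 genes and 0 of all 19360 genes tested (0%) were called with edgeR's quasi-likelihood test. At an unadjusted p under 0.05 there were 3 of the 10 genes (Zbp1, Mlkl and Casp8) against 3.47% of all genes. DESeq2 called 1 of the 10 genes (83 of all genes), limma voom 2 (294) and edgeR on the Cre+ groups alone 1 (15). The CPM of 5 of the 10 (Zbp1, Mlkl, Casp8, Tnfrsf1a and Birc3) were higher in all 4 Cre+ MPTP than in all 3 Cre+ Saline libraries, against 5.06% of all genes, and Tradd was lower in all (4.61% of all genes). The median log2FC was 0.46 against 0.00 over all genes.

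Zbp1 had 10, 8 and 9 counts in Cre+ Saline and 75, 37, 82 and 43 counts in Cre+ MPTP libraries (0.394, 0.325 and 0.343 against 2.77, 2.07, 3.64 and 1.64 CPM). All MPTP values were several times the highest Saline value. The log2FC was 2.82 (SE 0.392, edgeR adjusted p = 0.0598), or 7.06-fold. It passed the threshold without Cre- MPTP replicate 1 (2.82, SE 0.372, edgeR adjusted p = 0.0106) and under 5 of 7 other settings. That library was in neither group compared and entered through the count filter, the normalization and the shared estimate of spread. With single libraries omitted, the adjusted p by edgeR reached 0.591.

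Mlkl had 0.710, 0.163 and 0.305 CPM in Cre+ Saline and 0.961, 0.727, 0.932 and 1.41 CPM in Cre+ MPTP libraries. The highest Saline and the lowest MPTP value nearly touched. Its log2FC was 1.36 (SE 0.437, edgeR adjusted p = 0.990). Casp8 had 2.96, 3.09 and 2.47 CPM in Cre+ Saline and 4.55, 4.53, 4.08 and 5.38 CPM in Cre+ MPTP libraries, which were all higher. Its log2FC was 0.71 (SE 0.216, edgeR adjusted p = 0.864), and limma voom called it (adjusted p = 0.0210).

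Neither the receptor nor the ubiquitin ligase passed the test in Cre+ mice. Tnfrsf1a had 12.9, 12.2 and 12.4 CPM in Cre+ Saline and 14.4, 20.9, 15.1 and 17.8 CPM in Cre+ MPTP libraries, with a log2FC of 0.45 (SE 0.277, edgeR adjusted p = 1.0). Birc3 had 3.63, 3.13 and 3.39 CPM against 3.77, 7.22, 3.68 and 4.96 CPM, with a log2FC of 0.53 (SE 0.296, edgeR adjusted p = 1.0). In both genes replicate 2 was the highest Cre+ MPTP library, and it had the fewest counts of that group (17713289). Its neutrophil, astrocyte, oligodendrocyte and dopaminergic neuron marker sums were the highest of the group (4.14, 3932, 14400 and 348 CPM). Its microglia, endothelial, and monocyte and border macrophage sums were the lowest (282, 297 and 16 CPM). The part of these cells in the 2 genes was not tested. Ripk3 had 10, 7 and 6 counts in Cre+ Saline and 19, 4, 8 and 10 counts in Cre+ MPTP libraries, and these overlapped (log2FC 0.48, SE 0.487). The log2FC values of Ripk1 (0.18, SE 0.213), Fadd (0.28, SE 0.331), Cflar (0.12, SE 0.259) and Tradd (-0.23, SE 0.362) were each smaller than their SE.

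**Figure D4:**
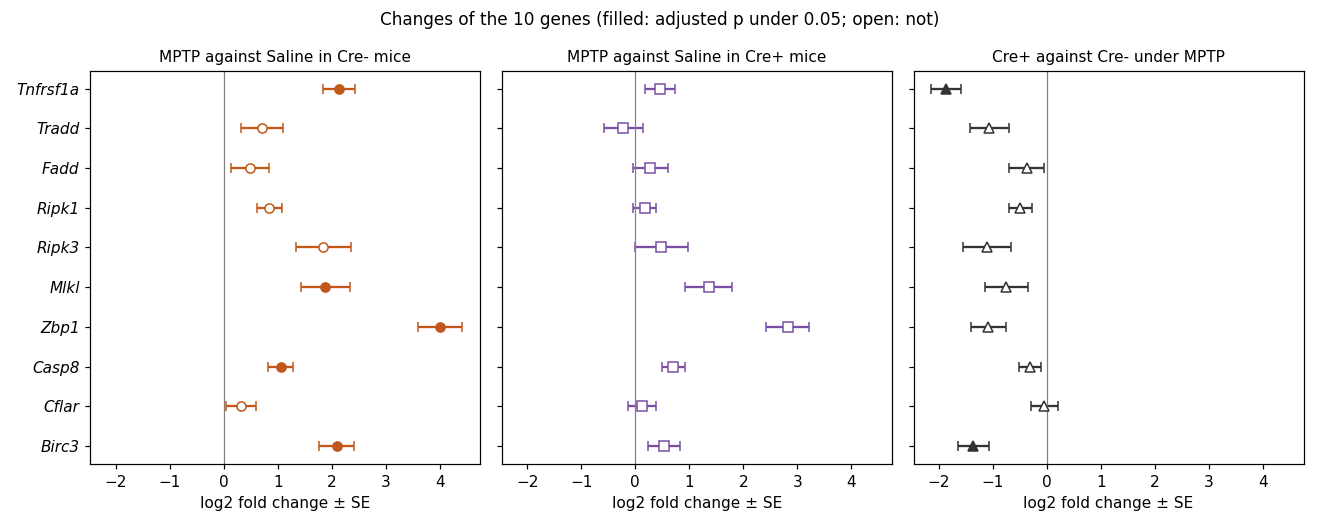
Log2FC ± SE of the 10 genes for MPTP against Saline in Cre- mice, MPTP against Saline in Cre+ mice, and Cre+ against Cre- under MPTP; filled symbols had an edgeR adjusted p under 0.05. Zbp1 had the largest change with MPTP in each genotype (4.01 and 2.82), and Tnfrsf1a and Birc3 were the genes called lower in Cre+ MPTP mice.

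The third comparison set the genotypes side by side after MPTP. Of the 10 genes, 2 were called lower in Cre+ MPTP than in Cre- MPTP mice (Tnfrsf1a and Birc3, by the same edgeR test), and 0 were called higher. Over all genes tested, 1.54% were called, 1.03% lower and 0.517% higher. All 10 log2FC values were negative, with a median of -0.91 against 0.03 over all genes, and the CPM of Tnfrsf1a, Birc3, Zbp1 and Ripk1 were lower in all 4 Cre+ MPTP than in all 3 Cre- MPTP libraries (5.07% of all genes). None of the 10 was higher in all (6.25%). These values use the same Cre- MPTP libraries as the MPTP response in Cre- mice, so the directions of the comparisons are not independent of each other.

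Tnfrsf1a, at 14.4 to 20.9 CPM in Cre+ MPTP and 42.0 to 102 CPM in Cre- MPTP libraries, was separated by a wide gap. This was a log2FC of -1.87 (SE 0.273, edgeR adjusted p = 0.00907), so that Cre- MPTP was 3.65-fold higher. It was -1.32 without Cre- MPTP replicate 1 (SE 0.129, edgeR adjusted p = 0.000333), and the call held with each library left out. It was lost when edgeR was fitted to the MPTP groups alone, where 0 genes of any kind were called (adjusted p = 0.222). Birc3, at 3.68 to 7.22 CPM in Cre+ MPTP and 7.91 to 16.9 CPM in Cre- MPTP libraries, had a narrow gap between Cre+ replicate 2 and Cre- replicate 1. Its log2FC was -1.36 (SE 0.287, edgeR adjusted p = 0.0382). The call was lost in 10 of the 13 fits with a library left out, where the adjusted p by edgeR reached 0.135, and it remained without Cre- MPTP replicate 1 (-1.61, edgeR adjusted p = 0.00294), Cre- MPTP replicate 2 or Cre+ MPTP replicate 2.

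Of the necroptotic core, Zbp1 had 1.64 to 3.64 CPM in Cre+ MPTP against 4.77 to 6.50 CPM in Cre- MPTP libraries, without overlap. Its log2FC was -1.08 (SE 0.325, edgeR adjusted p = 0.148), and DESeq2 (adjusted p = 0.0204) and limma voom (adjusted p = 0.00479) called it. Omitting Cre- MPTP replicate 1 gave -1.16 (edgeR adjusted p = 0.0838). Ripk3 itself, at 0.224 to 0.702 CPM in Cre+ MPTP and 0.650 to 1.32 CPM in Cre- MPTP libraries, overlapped between the genotypes, with a log2FC of -1.11 (SE 0.451, edgeR adjusted p = 0.224). Mlkl had -0.76 (SE 0.396, edgeR adjusted p = 0.315) and Ripk1 -0.49 (SE 0.211, edgeR adjusted p = 0.238). Without Cre- MPTP replicate 1, Ripk3 had -1.26, Mlkl -0.86 and Ripk1 -0.47. Tradd had -1.07 (SE 0.361, edgeR adjusted p = 0.190), which shrank to -0.22 without Cre- MPTP replicate 1 and passed the threshold without Cre- MPTP replicate 2 (-1.37, edgeR adjusted p = 0.0339). With all libraries, Casp8 had -0.32 (SE 0.211), Fadd -0.38 (SE 0.330) and Cflar -0.05 (SE 0.259). These depended on Cre- MPTP replicate 1, without which Casp8 had -0.081, Fadd 0.25 and Cflar -0.34. Between the MPTP groups, 4 of the 5 neutrophil markers tested were also called lower in Cre+ mice, and of the 8 astrocyte markers Gfap was called lower (-2.20). The microglia marker P2ry12 (2.12), the border macrophage marker Mrc1 (1.70) and the endothelial marker Kdr (1.28) were called higher in Cre+ mice, and the part of these cells in the differences was not tested.

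Whether the response to MPTP itself differed between genotypes was tested as an interaction. None of the 10 genes passed with edgeR's quasi-likelihood test (2 of all 19360 genes did, 0.0103%), and 2 had an unadjusted p under 0.05, against 5.76% of all genes. DESeq2, limma voom, and edgeR without Cre- MPTP replicate 1 and Cre+ MPTP replicate 4 each called 2 of the 10 genes. Over all genes, these settings called 223 of 19360, 689 of 19360 and 220 of 19148. The 2 of the 10 were Tnfrsf1a (-1.69, SE 0.401, edgeR adjusted p = 0.219) and Birc3 (-1.56, SE 0.428, edgeR adjusted p = 0.316). Without Cre- MPTP replicate 1 alone, Tnfrsf1a had an interaction of -1.14 (SE 0.183, edgeR adjusted p = 0.0169) and Birc3 of -1.80 (SE 0.354, edgeR adjusted p = 0.0323). For Zbp1 (-1.19, SE 0.553), Mlkl (-0.53, SE 0.625) and Casp8 (-0.35, SE 0.312), which had the smallest p-values in Cre+ mice, a different response between genotypes did not pass the test (edgeR adjusted p = 0.795, 0.841 and 0.811). Ripk3 had -1.36 (SE 0.706) and Ripk1 -0.67 (SE 0.311), with an edgeR adjusted p of 0.795 each. Without Cre- MPTP replicate 1, the 8 genes other than Tnfrsf1a and Birc3 had interactions from -1.50 (Ripk3) to 0.43 (Fadd), and none of the 8 passed.

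In the saline-treated mice, 0 of the 10 genes and 0 of all genes tested (0%) differed between genotypes with edgeR's quasi-likelihood test. At an unadjusted p under 0.05 there were 0 of the 10 genes and 176 of all genes (0.909%), and DESeq2, limma voom and edgeR on the Saline groups alone called 2, 3 and 6 genes, none of them among the 10. The log2FC values lay between -0.23 (Mlkl, SE 0.475) and 0.25 (Ripk3, SE 0.538). Tnfrsf1a was lower in all 3 Cre+ Saline libraries (5.71% of all genes) and none was higher in all (5.91%). The difference of Tnfrsf1a was -0.18 on the log2 scale (SE 0.293). The SE of Ripk3, Zbp1 and Mlkl, from 0.441 to 0.538, were the largest of the 10, and these genes had the lowest CPM.

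The other genes of the pathway were taken in 8 lists of 90 genes, of which 88 were tested and Lta and Fasl were not. After MPTP in Cre- mice 15 of the 88 were called higher and 2 lower, against 2.23% and 0.956% of all genes. In Cre+ mice 0 were called (0% of all genes), and between the MPTP-treated genotypes 6 were called lower and 0 higher in Cre+ mice, against 1.03% and 0.517% of all genes. Without Cre- MPTP replicate 1, all 17 calls in Cre- mice and 5 of the 6 between genotypes held. Itpk1 then fell from a log2FC of 1.07 to 0.63, Nfkbia from 2.49 to 1.70 and Nfkb2 from 2.09 to 1.48, and the difference of Nfkb2 between genotypes went from -1.61 to -0.996 and was no longer called (edgeR adjusted p = 0.0517). The median log2FC with MPTP in Cre- mice was highest for the 5 genes of pyroptosis execution (1.10), the 6 interferon transcription factors (0.78) and the 9 NF-kappaB subunits and inhibitors (0.54). It was near 0 for the 23 genes of RIPK1 ubiquitination (0.05), the 5 nucleic acid and Toll inputs to RIPK3 (0.02) and the 17 genes of apoptosis execution (0.03).

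**Figure D5:**
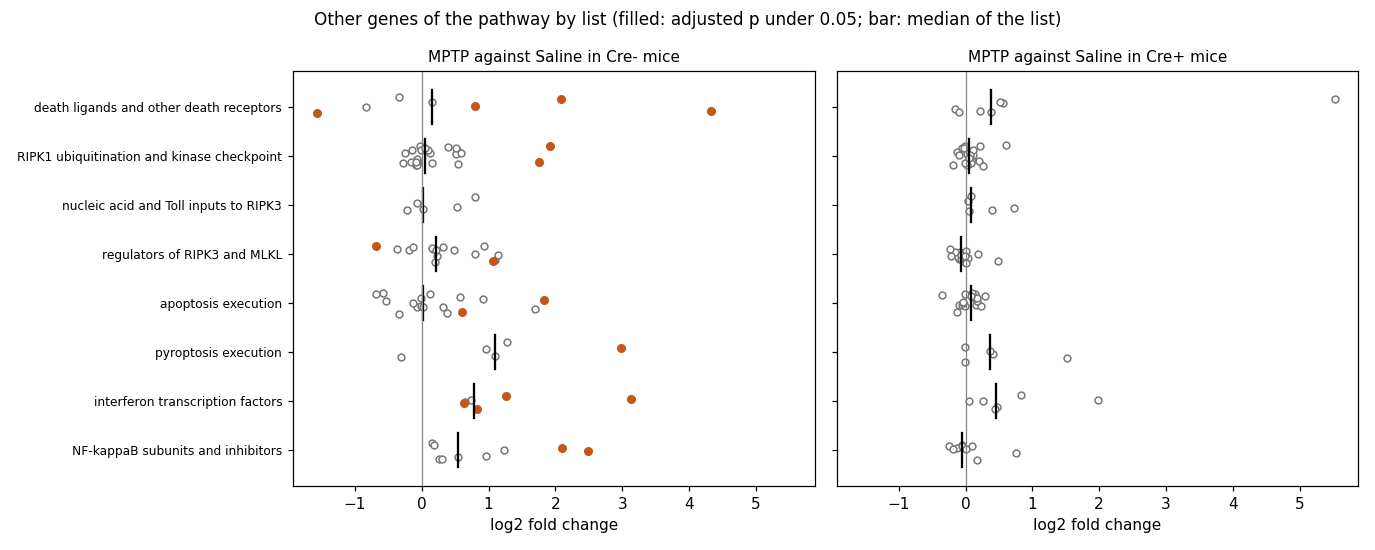
Log2FC with MPTP of each tested gene of the 8 pathway lists in Cre- mice and in Cre+ mice; filled points had an edgeR adjusted p under 0.05, and the bar is the median of the list. The position of Tnf depends on the prior count, since its Saline libraries held at most 1 count.

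Among death ligands and receptors, 3 of 7 were called higher and 1 lower in Cre- mice. Tnf, the ligand of TNF receptor 1, had 0 or 1 count in each Cre- Saline library and 1 to 24 counts in the Cre- MPTP libraries (edgeR adjusted p = 0.0351), and its call held in 5 of 13 fits with a library left out. Its log2FC was 4.33 (SE 0.951) in Cre- mice and 5.53 (SE 1.38, edgeR adjusted p = 0.580) in Cre+ mice. Both values depend on the prior count. Fas, the receptor of Fas ligand, rose from 1.58 ± 0.312 to 6.64 ± 3.15 CPM (SD, n = 3; log2FC 2.09, SE 0.440, edgeR adjusted p = 0.0205). Tnfrsf1b, TNF receptor 2, had 0.79 (SE 0.191, edgeR adjusted p = 0.0423), and its call held in only 2 of the 13 fits. Tnfrsf25 fell by 1.58 on the log2 scale (SE 0.338, adjusted p by edgeR = 0.0231). The calls of Fas and Tnfrsf25 held in 9 of 13 fits each, that of Fas being lost on omission of any Cre- Saline library or Cre- MPTP replicate 3, and that of Tnfrsf25 without Cre- Saline replicate 1 or 3 or Cre- MPTP replicate 2 or 3.

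Genes that restrain RIPK1 were represented by Tnfaip3, which encodes the ubiquitin-editing enzyme A20, and by the kinase gene Ikbke. Tnfaip3 rose from 4.17 ± 0.176 to 15.8 ± 2.21 CPM in Cre- mice (SD, n = 3; log2FC 1.92, SE 0.340, edgeR adjusted p = 0.00704) and had 5.11 ± 2.67 CPM in Cre+ MPTP mice (SD, n = 4). Ikbke rose by 1.76 on the log2 scale (SE 0.290, adjusted p by edgeR = 0.00482). The calls of both held with every library left out. Both were lower in Cre+ than in Cre- MPTP mice (Tnfaip3 -1.63, SE 0.307, and Ikbke -1.40, SE 0.263, edgeR adjusted p = 0.0236 each), and these calls did not survive omission of Cre+ MPTP replicate 1, 3 or 4, nor that of Ikbke omission of Cre- MPTP replicate 3. Of the 23 genes in this list, these were the 2 called. Of 16 regulators of RIPK3 and MLKL, Itpk1, an inositol phosphate kinase, was called higher (1.07, SE 0.251, edgeR adjusted p = 0.0373) and the receptor kinase gene Tyro3 lower (-0.69, SE 0.134, edgeR adjusted p = 0.0130). The call of Itpk1 held in 3 of 13 fits, and that of Tyro3 in 12 of 13, being lost without Cre- Saline replicate 1.

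The NF-kappaB inhibitor gene Nfkbia rose from 23.4 ± 7.65 to 131 ± 96.1 CPM in Cre- mice (SD, n = 3; log2FC 2.49, SE 0.453, edgeR adjusted p = 0.00839), and Nfkb2 rose by 2.09 on the log2 scale (SE 0.396, adjusted p by edgeR = 0.0108). Both were lower in Cre+ MPTP mice, with a log2FC of -2.41 for Nfkbia (SE 0.408, edgeR adjusted p = 0.0154) and -1.61 for Nfkb2 (SE 0.356, edgeR adjusted p = 0.0445). The rises were lost without Cre- Saline replicate 1 or 2, and of the differences between genotypes the call of Nfkbia held in 10 (not on omission of Cre+ MPTP replicate 1, 3 or 4) and Nfkb2 in 3 of 13 fits. The 6 interferon transcription factors had 4 calls in Cre- mice and 0 between the genotypes under MPTP. Irf7, the main amplifier of the type I interferon response, rose from 2.60 ± 0.943 to 22.9 ± 2.20 CPM in Cre- mice (SD, n = 3; log2FC 3.13, SE 0.337, edgeR adjusted p = 0.000850) and had 11.2 ± 3.77 CPM in Cre+ MPTP mice (SD, n = 4). In Cre+ mice its log2FC was 1.98 (SE 0.312, edgeR adjusted p = 0.104). Irf9 and Stat2 rose by 1.25 (SE 0.181) and 0.63 (SE 0.142) on the log2 scale in Cre- mice, and 4 of the 6 factors were higher in all Cre+ MPTP than in all Cre+ Saline libraries (5.06% of all genes). The calls of Irf7 and Irf9 held with every library left out, and that of Stat2 in 3 of 13 fits. All 6 had an unadjusted p under 0.05 between the MPTP-treated genotypes, as did 19% of all genes, with a median log2FC of -0.60.

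Of the effectors of other death programs, Pmaip1, which encodes the BH3-only protein NOXA, rose from 1.46 ± 0.106 to 5.19 ± 0.823 CPM in Cre- mice (SD, n = 3; log2FC 1.83, SE 0.246, edgeR adjusted p = 0.00186) and was lower in Cre+ MPTP mice (-1.29, SE 0.221, edgeR adjusted p = 0.0160). The survival gene Bcl2l1 rose by 0.61 (SE 0.125, edgeR adjusted p = 0.0175) and was also lower in Cre+ MPTP mice (-0.55, SE 0.116, edgeR adjusted p = 0.0377). The rise of Pmaip1 was called in every fit with a library left out, and its difference between genotypes in 11 of 13, being lost without Cre+ MPTP replicate 1 or 3. For Bcl2l1 these numbers were 11 (lost without Cre- Saline replicate 2 or 3) and 3. Casp4, the inflammatory caspase that senses cytosolic lipopolysaccharide, had 7 to 12 counts in Cre- Saline and 6 to 107 counts in Cre- MPTP libraries (log2FC 2.99, SE 0.631, edgeR adjusted p = 0.0208), and it was no longer called on omission of any Cre- Saline library or of Cre- MPTP replicate 2.

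For the 5 genes called in at least 1 comparison, the genes with the most similar pattern over the 13 libraries were found as the smallest root mean square difference of standardized log2 CPM. Tnfrsf1a was closest to Il17ra (0.121), which encodes an interleukin-17 receptor chain, followed by Mt1 (0.151) and Mxd4 (0.159). Birc3 was closest to Cp (0.17), which encodes ceruloplasmin, BE692007 (0.18) and Adamts9 (0.202). Zbp1 was closest to Nlrc5 (0.224), Irf7 (0.244) and Isg15 (0.271), the last of which encodes a ubiquitin-like protein induced by interferon. Casp8 was closest to Pml (0.314), Smg8 (0.324) and Ptbp1 (0.356), and Mlkl to Ifi207 (0.259), Paqr5 (0.299) and Tgm2 (0.329). None of the other called genes had a neighbor as near as that of Tnfrsf1a. The likeness is a description over libraries that share group and depth.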

How the data were processed

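Bulk RNA-Seq libraries came from 13 mouse midbrains, with group and replicate taken from the labels. Per the labels, the authors used Trimmomatic 0.36 for trimming, STAR 2.5.2b for alignment (GRCm38) and featureCounts (Subread 1.5.2) for uniquely mapped reads. The deposited files hold raw counts, unnormalized, for 49315 genes per library, and 48970 were given a symbol by Ensembl identifier. The labels also name DESeq2, and its formula was not given in the sources used here. Totals of 11489150 to 29397278 counts per library limit the precision where a gene has few reads.

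Genes that reached 10 counts in 3 or more libraries (19360) were tested with edgeR 4.0.16 in R 4.3.3: TMM normalization, 1 term per group over all 13 libraries, the quasi-likelihood test, and Benjamini-Hochberg adjustment over all genes of a comparison, with a call at an adjusted p under 0.05. Where an adjusted p is named as edgeR's, it comes from this test. The SE is the absolute log2 fold change divided by the square root of F. CPM are counts scaled by TMM-adjusted totals, and TPM were computed from counts and the exonic lengths in the files. The alternatives were DESeq2 1.42.0, voom with sample quality weights in limma 3.58.1, edgeR on the compared groups only, RLE size factors, no count filter, a replicate block, each library left out in turn, and Cre- MPTP replicate 1 and Cre+ MPTP replicate 4 left out together. The scripts were tested on simulated data.

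The 10 genes, the pathway and marker lists and the tests were chosen with earlier results of these data known. Named genes were all 10 members, the pathway genes called in a comparison (the values of 1 are not reported here), and the 3 nearest genes of each called member. Protein sequences were not analysed here.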

Additional observations from a re-analysis of the deposited data

How the results depend on the processing

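For MPTP in Cre- mice, 5 members and 616 genes in all were called. The members called were 7 with DESeq2, 8 with limma voom, 1 with edgeR on the compared groups only, 5 with RLE size factors, 3 without a count filter and 8 without Cre- MPTP replicate 1 and Cre+ MPTP replicate 4; all genes called were 1133 with DESeq2, 2624 with voom, 110 on the compared groups and 1923 without both libraries. With 1 library left out, the members called were 3 to 8 and all genes 311 to 1812; the most members were called without Cre- MPTP replicate 1. In Cre+ mice, the 0 members became 1 (DESeq2), 2 (voom), 1 (compared groups), 1 (no filter) and 1 (without both libraries), and the 0 genes became 83, 294, 15, 9 and 38; with 1 library left out there were 0 to 1 members and 0 to 32 genes. Between the MPTP-treated genotypes, the 2 members and 299 genes became 3 and 834 with DESeq2, 3 and 1224 with voom, and 0 and 0 on the compared groups; 557 genes were called without both libraries, and 1 to 3 members and 41 to 1826 genes with 1 library left out. In Saline mice, 0 members were called under every setting and 2 (DESeq2), 3 (voom) and 6 (compared groups) of all genes, with 0 genes whichever library was left out. For the interaction, DESeq2, voom and the fit without both libraries each called 2 members in place of 0, and 223, 689 and 220 genes in place of 2; 1 gene was called with RLE size factors and 10 without a filter, and 0 to 2 members and 0 to 199 genes with 1 library left out. The cause of these differences was not tested.

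The replicate numbers are not stated to pair the mice, and same-numbered libraries did not deviate together (correlation of deviations from the group means -0.179 to 0.184 over 18 pairs, above 0.1 in 3). For libraries of different groups and numbers it was -0.182 to 0.239 over 45 pairs, above 0.1 in 8. With the replicate number as a block, 3 members were called with MPTP in Cre- mice, 0 in Cre+ mice, and 0 members and 0 genes between the MPTP-treated genotypes, and 0 members and 0 genes for the interaction.

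Of the members' log2 fold changes, 16 of those with 1 library left out and 7 of those under other alternatives changed sign, none of them a called value. With MPTP in Cre- mice, Fadd was -0.13 without both libraries and -0.143 without Cre- MPTP replicate 1 (up to 0.754 with 1 library omitted), and Tradd was -0.12 with voom, -0.12 without both libraries and -0.135 without Cre- MPTP replicate 1 (up to 1.018). Between the MPTP-treated genotypes, Fadd was 0.15 with voom, 0.11 without both libraries and 0.253 without Cre- MPTP replicate 1 (down to -0.647), and Cflar was 0.184, 0.07 and 0.05 without Cre- MPTP replicate 2, Cre- MPTP replicate 3 and Cre+ MPTP replicate 3 (down to -0.344). For the interaction, Fadd was 0.18 with voom, 0.27 without both libraries and 0.425 without Cre- MPTP replicate 1 (down to -0.480), Mlkl 0.193 without Cre+ Saline replicate 1 (down to -0.889) and Cflar 0.021 without Cre- MPTP replicate 2 (down to -0.503). Cflar in Cre+ mice was -0.033 without Cre+ Saline replicate 2 (up to 0.213). Between the Saline genotypes, omitting Cre- Saline replicate 1 gave Ripk1 -0.033 (up to 0.390), Zbp1 -0.219 (up to 0.582) and Casp8 -0.029. Casp8 was -0.001 on omission of Cre- Saline replicate 2 and -0.034 on omission of Cre+ Saline replicate 2 (up to 0.135), where Mlkl was 0.132 (down to -0.949). Few counts limit Ripk3 (4 to 40 per library) and Zbp1 (4 to 164), and groups of 3 and 4 mice limit every comparison.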
